A study of Mus musculus with 3 samples.

Results

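The genes followed here, 9 in all, mark T cells and their killing and regulatory programs: Cd3e, Cd3g, Cd4, Cd8a, Cd8b1, Gzmb, Prf1, Nkg7 and Foxp3. They were picked by symbol, matched by Ensembl ID, and make up 9 of the 30406 gene IDs present in every library's gene list. All 9 were counted in every library. Values are unique molecular identifiers (UMIs, each standing for 1 captured RNA molecule) and UMIs per 1000000 UMIs of the shared gene IDs (CPM).

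The libraries are single-nucleus RNA from whole cornea, each pooled from 5 mice at 7 weeks of age. The WT library came from untreated wild-type mice, the KO library from untreated Aire knockout mice, and the KO_PBS library from Aire knockout mice that were given phosphate-buffered saline (PBS) for 14 days, all per the labels, and these names stand for the libraries labelled so. By its label the PBS group differs from the KO group by the PBS and by being another pool of mice. The series text instead places the comparison at 6 weeks of age and day 7 of treatment. Its lacripep-treated corneas were not analysed here. The knockout allele, the strain and the sex of the mice are not given in the sources used here. With 1 library per group there is no test and no p-value, and every interval below is a 95% interval that covers counting error only.

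T cells recognise antigen with a receptor that signals through the CD3 chains, which include the products of Cd3e and Cd3g. CD4 marks helper T cells and CD8, a dimer built from the products of Cd8a and Cd8b1, marks T cells that kill infected or altered cells. Killing uses perforin (Prf1), which opens the target membrane, and granzyme B (Gzmb), a protease that enters through it. Nkg7 is a granule membrane protein of killer cells, and Foxp3 is the transcription factor that defines regulatory T cells. Aire drives the display of tissue antigens in the thymus, and loss of it lets self-reactive T cells reach tissues that include the eye.

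The members do not all belong to T cells alone. Natural killer (NK) cells also use Gzmb, Prf1 and Nkg7, some macrophages and dendritic cells of mice carry CD4, and a subset of dendritic cells carries CD8 made of the Cd8a product. In sums over a whole cornea, fewer cells of a type and less RNA per cell cannot be told apart.

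On the GRCm38 assembly (mm10, GENCODE M21 annotation), Cd3e lies on chromosome 9 at 44998740 to 45009627 and Cd3g at 44969572 to 44980431, 18308 bases apart and both on the minus strand. Cd8a lies on chromosome 6 at 71373427 to 71379173 and Cd8b1 at 71322788 to 71337494, 35932 bases apart on the plus strand. Cd4 is on the same chromosome at 124864692 to 124888221. Gzmb lies on chromosome 14 at 56258838 to 56262260, Prf1 on chromosome 10 at 61297833 to 61304680, Nkg7 on chromosome 7 at 43437073 to 43438249 and Foxp3 on chromosome X at 7573644 to 7595245. Each is a protein-coding gene, and the values below are sums over the whole gene. The lens gene Lim2 ends 1076 bases upstream of Nkg7 on the same strand, and Foxp3 shares 7384 bases with the noncoding gene Flicr on its own strand. Cd3e shares 3557 bases with the antisense gene Gm48719. How reads were split between such overlapping genes is not given in the sources used here, nor between Gzmb and the similar granzyme genes beside it.

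Gzmb and Prf1 act together in killing, and the sequences before their start sites are shown. They are RefSeq promoter sequences on GRCm38.p6, read 5′ to 3′ on the gene's strand from 250 to 11 bases before the RefSeq start, which for Gzmb lies 74 bases upstream of the GENCODE start. Gzmb's stretch is chr14:56262345-56262584 on the minus strand and Prf1's is chr10:61297586-61297825 on the plus strand. Capitals mark matches on either strand to RUNX (TGTGGT), ETS (AGGAAG), T-box (GGTGTG), CRE (TGACGT) and STAT (TTCNNNGAA) letters.
Gzmb: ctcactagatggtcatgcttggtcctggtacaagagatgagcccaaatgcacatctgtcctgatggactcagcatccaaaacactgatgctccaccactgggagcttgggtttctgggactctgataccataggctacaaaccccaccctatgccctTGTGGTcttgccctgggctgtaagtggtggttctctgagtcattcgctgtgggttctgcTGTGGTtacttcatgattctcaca
Prf1: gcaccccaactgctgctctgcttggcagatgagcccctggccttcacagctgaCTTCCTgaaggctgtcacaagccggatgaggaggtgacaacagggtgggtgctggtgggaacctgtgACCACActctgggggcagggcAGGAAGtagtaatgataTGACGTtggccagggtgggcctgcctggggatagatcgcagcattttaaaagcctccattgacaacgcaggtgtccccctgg
The Gzmb stretch held 2 RUNX matches and the Prf1 stretch 1 RUNX, 2 ETS and 1 CRE match. Matches were counted for the 6 members with a single start entry. Cd3g and Cd8a held 0 matches to any of these letters, Cd3e 2 ETS and 1 CRE, and Nkg7 1 RUNX, 1 ETS and 1 STAT. Over 32851 RefSeq promoter stretches of the same 240 bases, 13.6% held the RUNX letters, 28.4% the ETS, 15.7% the T-box, 6.09% the CRE and 6.77% the STAT letters. A match is a description of letters and not a binding site, and no link between these letters and the RNA levels was tested. Promoter entries were found for 7 of the 9 members.

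The WT, KO and KO_PBS files held 96587, 107031 and 114357 barcodes with 256852883, 352627863 and 178988562 UMIs, and median UMIs per barcode of 2261, 2980 and 1432. Whether barcodes without a nucleus were removed is not given in the sources used here, so a percent of barcodes below is not a percent of nuclei. Between 2833 and 3379 barcodes were shared by a pair of libraries. Aire itself, the deleted gene, was counted at 15 UMIs (0.0586 CPM) in WT, 27 (0.0768 CPM) in KO and 68 (0.382 CPM) in KO_PBS, so it was not lower in the libraries labelled KO, and in KO_PBS it was above WT with intervals apart. The deleted stretch is not given in the sources used here and UMIs from outside it would be counted, so Aire does not check the labels. Markers of the tissue were abundant, with the 8 epithelial genes summing to 50611, 34855 and 22087 CPM and the 8 keratocyte genes (cells of the corneal stroma) to 1227, 3952 and 2369 CPM. Immunoglobulin genes took 0.000438% of the WT UMIs, 2.22% of the KO UMIs and 0.184% of the KO_PBS UMIs.

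All 9 genes were scarce in WT and were 13.9-fold to 384-fold higher in the KO library. A gene was called higher or lower when its UMIs reached 50 over the pair of libraries, its CPM differed at least 2-fold and its 95% Poisson intervals lay apart. The rule reads size and counting error and is no test. By it 9 of the 9 members were called higher in KO than in WT and 0 lower, where 20.6% of the 20252 genes tested were called higher and 8.63% lower. The members' median log2 ratio was 5.49, beside 0.24 over all genes tested.

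The CD3 genes give the most direct count of T cell RNA. Cd3e had 94 UMIs in WT (0.367 CPM, interval 0.297 to 0.449), 5793 in KO (16.5 CPM, 16.1 to 16.9), and KO_PBS had 2551 (14.3 CPM, 13.8 to 14.9). Cd3g had 143 UMIs in WT (0.559 CPM), 6764 in KO (19.3 CPM), and KO_PBS had 1747 (9.82 CPM). Both were low in WT and high in the 2 libraries labelled KO, with no overlap of intervals. Against WT, Cd3e was 44.9-fold higher in KO (36.6 to 55.6) and Cd3g 34.5-fold (29.2 to 41.0).

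The coreceptor genes had the same low level in WT and high level elsewhere. Cd4 had 52 UMIs in WT (0.203 CPM, 0.152 to 0.266), 2582 in KO (7.35 CPM, 7.07 to 7.64), and KO_PBS had 3069 (17.3 CPM, 16.7 to 17.9). Cd8a had 9 UMIs in WT (0.0352 CPM, 0.0161 to 0.0668), 1055 in KO (3.00 CPM), and KO_PBS had 757 (4.26 CPM). Cd8b1, whose product pairs with that of Cd8a on CD8 T cells, had 17 UMIs in WT (0.0664 CPM), 1481 in KO (4.22 CPM), and KO_PBS had 586 (3.30 CPM). By CPM, Cd4 and Cd8a were highest in KO_PBS, whereas Cd8b1 was highest in KO. The order of KO and KO_PBS for Cd8a turned with other scalings, given below. From WT to KO, Cd4 was 36.2-fold higher (27.5 to 48.6), Cd8a 85.4-fold (44.8 to 187) and Cd8b1 63.5-fold (39.5 to 109).

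Gzmb and Nkg7, both granule genes, had the largest KO to WT ratios of the 9, while that of Prf1 was near those of Cd3e and Cd4. Gzmb had 3 UMIs in WT (0.0117 CPM, 0.00242 to 0.0343), 1580 in KO (4.50 CPM, 4.28 to 4.72), and KO_PBS had 501 (2.82 CPM, 2.58 to 3.08). Prf1 had 8 UMIs in WT (0.0313 CPM), 444 in KO (1.26 CPM, 1.15 to 1.39), and KO_PBS had 507 (2.85 CPM, 2.61 to 3.11). Nkg7 had 34 UMIs in WT (0.133 CPM), 5129 in KO (14.6 CPM), and KO_PBS had 4236 (23.8 CPM). WT was lowest for each of the 3, but Gzmb was highest in KO while Prf1 and Nkg7 were highest in KO_PBS. The KO to WT ratio of Gzmb was 384 with a wide interval of 131 to 1862, since it rests on 3 WT UMIs. For Nkg7 it was 109.9 (78.5 to 159) and for Prf1 40.4 (20.3 to 94.2).

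Foxp3 had the smallest ratio of the 9. It had 48 UMIs in WT (0.188 CPM, 0.138 to 0.249), 917 in KO (2.61 CPM, 2.44 to 2.78), and KO_PBS had 652 (3.67 CPM, 3.39 to 3.96). The KO library was thus 13.9-fold above WT (10.4 to 19.0), an interval below those of the other 8 members. How many of these UMIs come from the stretch that Foxp3 shares with Flicr was not measured.

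**Figure D1:**
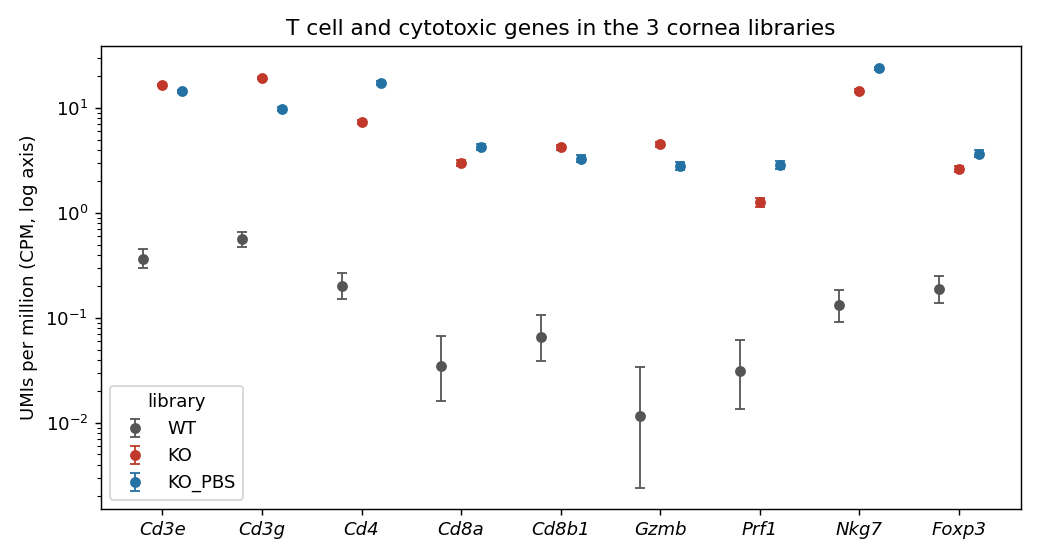
CPM (log axis) of the 9 genes in the WT, KO and KO_PBS libraries; points are 1 library each and bars are exact 95% Poisson intervals. Every WT point lies below 1 CPM, and every KO and KO_PBS point lies above it.

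In the KO_PBS library the members were again above WT, with 9 of 9 called higher and 0 lower. This must be read against 57.0% of 22138 genes called higher and 4.06% lower in that comparison, and an all-gene median log2 ratio of 1.27. The members' median was 6.41. The ratios ran from 17.6-fold for Cd3g (14.8 to 21.0) to 240.4-fold for Gzmb (81.8 to 1169). Cd4 was 84.9-fold higher than in WT, Cd8a 121-fold, Nkg7 179-fold and Foxp3 19.5-fold. This comparison shares the WT library with KO against WT and the KO_PBS library with the next one, so the 3 are not independent.

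Between KO_PBS and KO the 9 genes did not move together. Cd4 was 2.35-fold higher in KO_PBS (2.23 to 2.48) and Prf1 2.26-fold higher (1.98 to 2.57), and these were the 2 members called higher. Nkg7 was 1.63-fold higher, Cd8a 1.42-fold and Foxp3 1.40-fold, short of the 2-fold rule. Cd3g was at 0.510 of its KO level (0.484 to 0.538), Gzmb at 0.627 (0.565 to 0.693), Cd8b1 at 0.782 (0.709 to 0.861) and Cd3e at 0.870 (0.830 to 0.912), and 0 were called lower. Over all 22416 genes tested, 39.9% were called higher and 4.70% lower, so 2 of 9 higher is no larger a share than the background.

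The whole library was shifted in this comparison. The median log2 ratio of all genes was 0.63, while the members' median was 0.49. Centred on that median, the log2 ratio of Cd4 was 0.60, of Prf1 0.54 and of Nkg7 0.08. Cd8a and Foxp3 changed sign, to -0.13 and -0.14. Cd3e came to -0.83, Cd8b1 to -0.99, Gzmb to -1.30 and Cd3g to -1.60. On this scale 0 members were called higher and 2 lower, Cd3g and Gzmb, where 29.8% and 12.9% of all genes tested were. With TMM scaling, edgeR's factor that trims extreme genes, 0 were higher and 3 lower, beside 29.2% and 14.1% of all genes. The order of the 9 genes does not depend on the scaling, since a scaling shifts them all by the same amount.

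**Figure D2:**
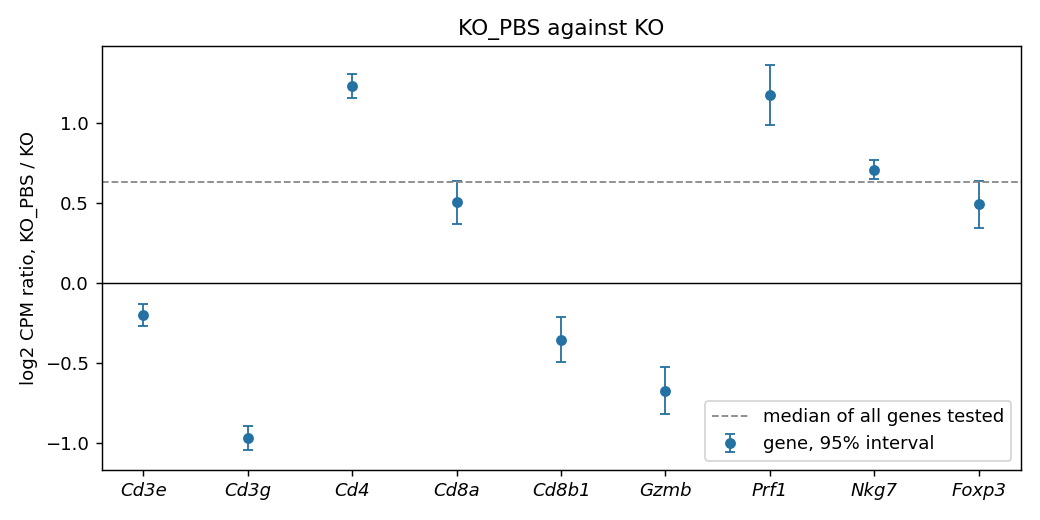
Log2 CPM ratio of KO_PBS to KO for each gene with exact 95% intervals; the solid line is no difference and the dashed line the median of all genes tested, 0.63. Cd4, Prf1 and, narrowly, Nkg7 lie above the dashed line with their whole intervals, and Cd3g, Gzmb, Cd8b1 and Cd3e lie below 0.

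Shares within a library need no scaling between libraries. Of the Cd3e and Cd3g UMIs, Cd3g made up 60.3% in WT (53.8 to 66.6), 53.9% in KO (53.0 to 54.7) and 40.6% in KO_PBS (39.2 to 42.1). Of the Cd8a and Cd8b1 UMIs, Cd8b1 made up 65.4% in WT (44.3 to 82.8), 58.4% in KO (56.5 to 60.3) and 43.6% in KO_PBS (41.0 to 46.3). In both pairs the KO_PBS share was lower than the KO share by more than counting error. The KO_PBS file has another gene list than the other files, and the part of differing gene models in these shares was not tested. The products of each pair sit together in 1 complex at the cell surface.

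The Cd4 share of the coreceptor UMIs was also different between the libraries. Of the Cd4 and Cd8a UMIs, Cd4 made up 85.2% in WT (73.8 to 93.0, from 61 UMIs), 71.0% in KO (69.5 to 72.5) and 80.2% in KO_PBS (78.9 to 81.5). With Cd8b1 added to Cd8a the shares were 66.7%, 50.4% and 69.6%. KO was lowest on both counts, and on both the WT interval left out the KO value and held the KO_PBS value. In WT, the 51 barcodes with a Cd4 UMI and the 9 with a Cd8a UMI held 0 UMIs of any other member. That says little, since the upper limit was 18.5 CPM per member in the Cd4 barcodes and no member passed 0.559 CPM in the library. The WT share rests on few UMIs, and in no library is the share read as a balance of T cells. The 8 macrophage markers, from cells that can carry Cd4, summed to 102 CPM in WT, 884 in KO and 827 in KO_PBS, and 0 of 8 were at 0 UMIs anywhere. The 9 dendritic cell markers summed to 5.60, 40.0 and 55.1 CPM. Their part in the Cd4 and Cd8a values was not tested.

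Per 100 UMIs of Cd3e and Cd3g together, the WT library had 21.9 Cd4 UMIs, the KO library 20.6 and the KO_PBS library 71.4. The 2 CD8 genes together gave 11.0, 20.2 and 31.2. Relative to CD3, then, Cd4 was 20.6 in KO against an interval of 15.9 to 29.7 in WT, with KO_PBS far above both. Cd3e and Cd3g were lower in KO_PBS, at 0.870 and 0.510 of KO, while the all-gene median log2 ratio was 0.63. A gene at that median would thus also be higher per CD3 UMI in KO_PBS than in KO. The part of the differing gene lists in the CD3 UMIs was not tested. Foxp3 gave 20.3 per 100 in WT (14.5 to 27.7), 7.30 in KO (6.82 to 7.81) and 15.2 in KO_PBS (13.9 to 16.5). Foxp3 relative to CD3 was lowest in KO over all barcodes. In barcodes with at least 3 of 16 other T cell genes it was 8.18 in KO (6.65 to 9.97) and 9.48 in KO_PBS (5.67 to 15.0), and with at least 6 the order turned, to 13.8 and 5.88 on 9 and 2 Foxp3 UMIs.

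The killing genes split further when set against CD3. Gzmb gave 1.27 UMIs per 100 CD3 UMIs in WT (0.259 to 3.74), 12.6 in KO (11.9 to 13.3) and 11.7 in KO_PBS (10.6 to 12.8). Prf1 gave 3.38 in WT (1.44 to 6.76), 3.54 in KO (3.21 to 3.89) and 11.8 in KO_PBS (10.7 to 12.9). Nkg7 gave 14.3, 40.8 and 98.6. Against WT, Gzmb was higher relative to CD3 in both libraries labelled KO, and Prf1 in KO_PBS alone. As above, a gene at the all-gene median would also be higher per CD3 UMI in KO_PBS than in KO. Centred on that median, the KO_PBS to KO log2 ratio was 0.54 for Prf1, 0.08 for Nkg7 and -1.30 for Gzmb. As a share of Prf1 and Gzmb UMIs, Prf1 made up 72.7% in WT (39.0 to 94.0, from 11 UMIs), 21.9% in KO (20.2 to 23.8) and 50.3% in KO_PBS (47.2 to 53.4).

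**Figure D3:**
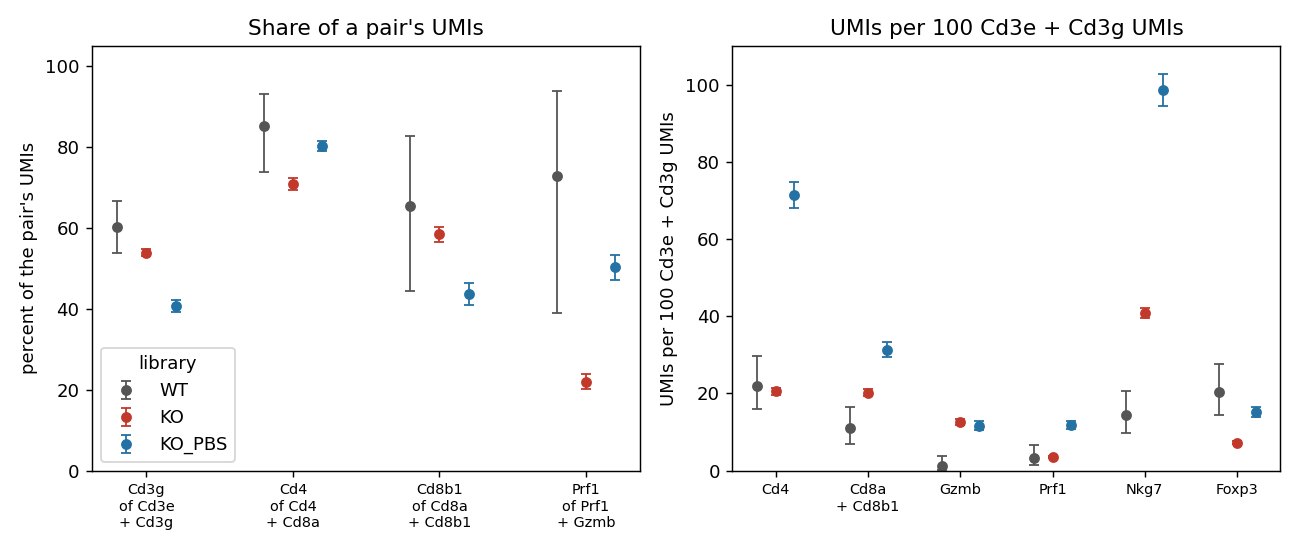
Left, the share of a pair's UMIs held by the gene named first, in percent; right, UMIs per 100 Cd3e and Cd3g UMIs; points are libraries and bars exact 95% intervals. Cd3g and Cd8b1 shares are lowest in KO_PBS, and Cd4, Prf1 and Nkg7 per CD3 UMI are highest there.

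NK cell markers were higher beside the granule genes. All 6 were called higher in the KO library than in WT, beside 20.6% of all genes tested. Their summed CPM in WT, KO and KO_PBS was 0.313, 7.48 and 11.3, with 0 of 6 at 0 UMIs in any library. Their part in the Gzmb, Prf1 and Nkg7 values was not tested. Lim2, the lens gene just upstream of Nkg7, carries different Ensembl IDs in the KO_PBS list and the other lists, so it was read by symbol and its values may not rest on the same gene model. It had 3.58 CPM in WT, 1.19 in KO and, far above both, 29.9 in KO_PBS. In KO_PBS, barcodes with a Lim2 UMI had 1.04 times the Nkg7 CPM of the other barcodes (0.905 to 1.20). Over the 9 members this ratio ran from 0.785 to 1.23, and for the epithelial keratin Krt12 it was 0.968. The split thus does not set Nkg7 apart, and the part of Lim2 reads in the Nkg7 values was not tested.

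The other genes of the T cell receptor and its signalling were also higher in the libraries labelled KO. Against WT, all 18 listed receptor chains and proximal signalling genes were called higher in KO, beside 20.6% of all genes tested. Their median log2 ratio was 4.75. Trbc2, a constant segment of the receptor's beta chain, had 0.586 CPM in WT, 29.0 in KO and 29.9 in KO_PBS. Skap1, an adaptor downstream of the receptor, had 3.97, 33.0 and 41.1 CPM. Thy1, a surface protein of T cells that stromal cells also make, had 2.97, 22.5 and 48.8 CPM. It was the 1 gene of the 18 called higher in KO_PBS than in KO, with 0 lower, beside 39.9% and 4.70% of all genes. Bcl11b, a transcription factor of T cell identity, had 6.43, 22.6 and 20.1 CPM. Of the 18 it had the highest WT level and the smallest KO to WT log2 ratio, 1.81, and it is also a gene of the barcode rule below. Cd3d, a further CD3 chain gene that neighbours Cd3g, was at 0.625 of its KO level in KO_PBS, between Cd3g and Cd3e.

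Helper T cell partners were mixed. Of 12, 11 were tested, and 8 were called higher and 0 lower in KO than in WT. Over all genes tested the shares were 20.6% and 8.63%. Icos, a costimulatory receptor, had 0.156 CPM in WT, 15.2 in KO and 7.99 in KO_PBS. Maf, a transcription factor also used by lens and macrophages, had 14.6, 50.4 and 339 CPM. Bcl6, a follicular helper factor, had 8.85, 26.7 and 25.6 CPM, and Zbtb7b, which directs the CD4 fate and is also made by epithelium, had 46.7, 47.5 and 48.8 CPM. In KO_PBS against KO, 3 were called higher, Maf, Il4 and Il2, and 0 lower, beside 39.9% and 4.70% of all genes tested.

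Most cytotoxic partners were higher as well. Of 18, 17 were called higher in KO than in WT and 0 lower, beside 20.6% and 8.63% of all genes tested. Gzmc was the exception at 1.10-fold (0.744 to 1.64). Ccl5, a chemokine of activated T and NK cells, had 1.41 CPM in WT, 220 in KO and 154 in KO_PBS. Gzma, another granzyme, had 0.277, 21.9 and 21.0 CPM. Srgn, a granule proteoglycan of many blood cells, had 6.99, 73.9 and 35.6 CPM, and Serpinb9, an inhibitor of granzyme B, had 2.63, 18.4 and 24.6 CPM. In KO_PBS against KO, Cst7, Gzmc, Itgae and Xcl1 were called higher and Srgn lower, beside 39.9% and 4.70% of all genes tested.

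The regulatory and memory lists held genes that other corneal cells also use. Of 12 regulatory partners 11 were called higher in KO than in WT, and Ikzf4, at 1.99-fold, was not. Il2rb, a receptor chain for interleukin-2, had 0.0586 CPM in WT, 10.6 in KO and 13.4 in KO_PBS. Ikzf2, a partner of Foxp3, was high in WT already, at 183 CPM, beside 486 in KO and 197 in KO_PBS. In KO_PBS against KO, Ikzf4 and Itgb8 were called higher and Ikzf2 and Tnfrsf18 lower. All 10 naive and memory genes were called higher in KO than in WT, Il7r, a survival receptor, 35.4-fold and Cd44, an adhesion receptor that epithelium also makes, 2.25-fold. Of these, Lef1 was called higher in KO_PBS than in KO, and Il7r, Cd44 and Cxcr3 lower. Over all genes tested, 20.6% were called higher in KO than in WT. Between KO_PBS and KO, 39.9% were called higher and 4.70% lower.

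Against WT, the KO_PBS library had 18 of 18 receptor and signalling genes called higher, 9 of 11 helper genes, 18 of 18 cytotoxic genes, 10 of 12 regulatory genes and 9 of 10 naive and memory genes, beside 57.0% of all genes tested. Over these 5 lists, 70 genes in all, KO_PBS against KO had 11 higher calls and 6 lower calls, where the shares over all genes tested were 39.9% and 4.70%. Centred on the median gene the numbers were 5 and 18, beside 29.8% and 12.9% of all genes on that scale. With TMM scaling they were also 5 and 18, beside 29.2% and 14.1%. The lists were drawn up with earlier results of these libraries known.

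The pattern of the 9 genes over the 3 libraries was also compared with that of other genes. Among 19136 genes with at least 200 UMIs, the 5 nearest to the members' median profile by Euclidean distance of centred log2 CPM were Cd6, Il21r, Ptprcap, Rac2 and Gm21188, at distances of 0.317 to 0.349. Cd6, a T cell surface receptor, had 0.125, 6.59 and 10.0 CPM in library order (WT, KO, KO_PBS). The nearest gene to Nkg7 was Ifng (interferon gamma, distance 0.0251), to Prf1 Xcl1, to Cd8b1 Klrk1, to Cd3e Cd38 and to Cd4 Dnase1l3. Counts below 3 were set to 3 for these distances. Ifng, at 0.00391 CPM in WT, was below that floor, so its closeness to Nkg7 rests in part on the floor. The nearest to Cd3g was Chil3 (0.0895), to Cd8a Tgtp2 (0.0363), to Gzmb Cd79a (0.359) and to Foxp3 Tlr11 (0.0199). The distance of Cd79a was the largest for any member, and Gzmb, with 3 UMIs in WT, stood at the floor there. With 3 libraries such a distance rests on 3 points.

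Most UMIs of the 9 genes did not sit in barcodes that looked like T cells. In KO, 21722 barcodes, 20.3% of all, had a UMI of at least 1 member, beside 399 (0.413%) in WT and 13213 (11.6%) in KO_PBS. At least 3 members were found together in 0, 281 and 69 barcodes. Of the 5567 KO barcodes with a Cd3e UMI, 5352 had exactly 1. A Cd3e or Cd3g UMI was found in 0.240%, 10.8% and 3.63% of barcodes in WT, KO and KO_PBS. With each barcode thinned to 1000 UMIs, which left out 265, 226 and 16860 shallower ones, the shares were 0.0934%, 3.54% and 2.37%. Keratocyte-marker barcodes had thinned shares of 0.0916%, 3.65% and 2.42%, and unthinned median depths of 2686, 3005 and 1639 UMIs. They are not a set of keratocytes alone. Krt12, an epithelial keratin, had 13784 CPM in the unthinned class in KO and 6081 in KO_PBS. In all barcodes with fewer than 3 of the T cell genes described next it had 13837 and 6223 CPM. The class thus cannot serve as barcodes free of T cell RNA. That class is large, with 7641 of 96322, 53715 of 106805 and 24359 of 97497 thinned barcodes. The barcodes outside it, which share none with it, had 0.0936% (0.0746 to 0.116), 3.44% (3.28 to 3.59) and 2.35% (2.24 to 2.46), in no library above the thinned keratocyte-marker share beyond counting error. The class rule was applied to the thinned counts, so fewer barcodes met it than before thinning. Unthinned, the share outside the class was 12.9% in KO (12.3 to 13.4) beside 10.5% inside (10.3 to 10.7), and 3.37% beside 3.95% in KO_PBS. The class leaves out the barcodes with other T cell genes described next, so these lie outside it. Shares of this size in keratocyte-marker barcodes mean that a CD3 UMI alone is not read as a cell expressing CD3.

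Levels were also read by barcode class. For Cd3e in KO, the level was 16.2 CPM (15.1 to 17.3) in the lowest 25% of barcodes by UMI count, 15.9 in keratocyte-marker barcodes and 15.9 in macrophage-marker barcodes. In KO_PBS these were 14.2, 13.4 and 13.2 CPM. Cd4 had 7.09 CPM in KO keratocyte-marker barcodes and 16.5 in KO_PBS ones. Keratocyte-marker barcodes were 93701 of the 107031 in KO and 50267 of the 114357 in KO_PBS, so their values overlap the library's own by construction. In KO, the lowest 25% of barcodes and the 31715 macrophage-marker barcodes had intervals that overlapped the library's for 9 of 9 members. In KO_PBS this held for 7 members in the lowest 25% and for 8 in the 7436 macrophage-marker barcodes. The exceptions in the lowest 25% were Cd3g, with 8.01 CPM beside 9.82 in the library, and Nkg7, with 27.7 beside 23.8. In macrophage-marker barcodes Gzmb had 1.75 CPM (1.14 to 2.56) beside 2.82 (2.58 to 3.08). In the 208 B cell-marker barcodes of KO_PBS, Cd8a had 13.1 CPM (4.82 to 28.6, from 6 UMIs) beside 4.26 in the library. The share of all genes whose class intervals overlapped the library's was not computed.

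Barcodes with UMIs of at least 3 of 16 other T cell genes (Cd3d, Trbc2, Lck and others, no member among them) held somewhat more of the members. WT had 17 such barcodes, KO 4720 and KO_PBS 1168, with median UMIs of 10604, 4536 and 2062.5, above those of other barcodes. In KO, Cd3e had 25.6 CPM in them and 15.8 elsewhere, a ratio of 1.61 (1.48 to 1.76). Foxp3 had a ratio of 1.83 (1.48 to 2.24), Cd8a 1.74 (1.43 to 2.11), and Prf1 1.04 (0.697 to 1.497). Of the 9 members, 8 had an interval above 1 there, Prf1 being the exception. The share of all genes with such an interval was not computed, so this count has no background. Krt12, an epithelial keratin, had a ratio of 0.953.

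In KO_PBS the ratio was also above 1. Cd3e had 43.6 CPM in them and 13.9 elsewhere, a ratio of 3.14 (2.60 to 3.76), and Cd4 had 54.2 and 16.7 CPM, a ratio of 3.25 (2.75 to 3.83). Gzmb had a ratio of 3.95 (2.63 to 5.71), Prf1 2.28 (1.34 to 3.64), Nkg7 1.93 (1.61 to 2.30) and Foxp3 1.96 (1.19 to 3.06). All 9 had an interval above 1, again with no share over all genes computed, while Krt12 stood at 0.820. These barcodes still held a small part of the members' UMIs, 625 of 14606, so 95.7% lay outside them. In KO 89.9% lay outside. The same barcodes held 1.59% of all UMIs in KO_PBS and 6.74% in KO. Whether a barcode that met the rule was a T cell nucleus was not tested. With each barcode thinned to 1000 UMIs before the rule, the ratio of Cd3e and Cd3g together was 1.60 in 175 KO barcodes and 4.10 in 297 KO_PBS barcodes.

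A stricter rule of at least 6 of the 16 genes, added after the data were seen, left 1 WT barcode, 114 KO barcodes and 59 KO_PBS barcodes. In KO_PBS, Cd4 had 132 CPM in them from 35 UMIs, 7.75 times its level elsewhere (5.39 to 10.8), and Cd3e 90.8 CPM, 6.38 times (4.08 to 9.52). In KO, Foxp3 was 3.93 times its level elsewhere (1.79 to 7.49, from 9 UMIs) and Gzmb 3.03 times (1.56 to 5.31). Of the 9 members, 7 had an interval above 1 in KO and 7 in KO_PBS, and the share over all genes was not computed. These barcodes were deeper than most, with medians of 7163.5 UMIs in KO and 3824 in KO_PBS.

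**Figure D4:**
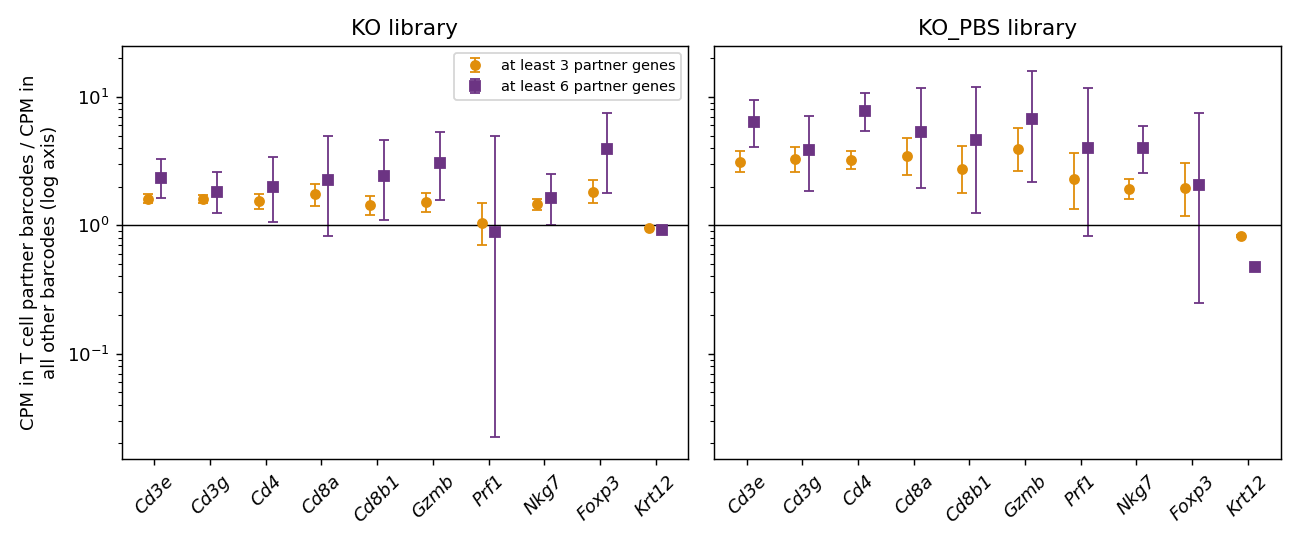
CPM in barcodes with at least 3 (circles) or 6 (squares) T cell partner genes divided by CPM in all other barcodes, log axis, with exact 95% intervals, for the KO and KO_PBS libraries. With 3 partner genes the point of every member is higher in KO_PBS than in KO, with 6 that of Foxp3 is not, and Krt12, the epithelial gene, lies below 1.

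The genes that led the partner barcodes, ranked by their CPM there over that elsewhere, were T cell genes in part. Only genes that reached a UMI minimum inside these barcodes were ranked, so a scarce gene could enter only if it was high there. The barcodes were also picked by T cell genes, so the ranking does not test whether they were T cell nuclei. In KO, Il21, a helper T cell cytokine, led with 1.44 CPM against 0.513 elsewhere, followed by Gm26586, B130046B21Rik, Ifng and Scube2. In KO_PBS, Gm2682, Gm49180, Icos, Gm44174 and Stat4 led, and Icos had 43.6 CPM against 7.42. Gm44174 is a noncoding gene that ends 142 bases from Cd8a on the same strand. The 17 WT barcodes were led by Gm30835, Hydin, A330093E20Rik, C530008M17Rik and Gm12132, none of them a gene of the T cell lists, and held 5 member UMIs.

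CD4 and CD8 were also read within barcodes, by comparing those with a Cd8a UMI and no Cd4 UMI with those that had the reverse. In KO, Cd8b1 was 1.05 times as high beside Cd8a as beside Cd4 (0.623 to 1.72), and Foxp3 0.935 times (0.438 to 1.86). In KO_PBS, Cd8b1 was 2.48 times as high beside Cd8a (1.17 to 5.07, from 14 and 22 UMIs) and Gzmb 2.84 times (0.990 to 7.74, from 8 and 11 UMIs). Foxp3 there was 1.02 times as high (0.339 to 2.57), and Krt12 1.01 times. Over all barcodes, Cd8b1 in KO_PBS was the 1 member of those compared in KO and KO_PBS with an interval that left out 1. Without the 5% of barcodes with the most UMIs its ratio was 2.47 (1.05 to 5.51). Within partner barcodes of KO_PBS it was 2.25 with an interval that held 1 (0.188 to 19.7, from 2 and 3 UMIs). There Gzmb was 8.46 times as high beside Cd8a (1.38 to 88.8, from 5 and 2 UMIs) and Nkg7 0.338 times (0.0661 to 1.09, from 3 and 30). Within partner barcodes of KO, Gzmb had 0 UMIs beside Cd8a and 7 beside Cd4.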

How the data were processed

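The values the authors deposited are raw UMI counts, 1 whole number for each gene in each barcode. Counting used Cell Ranger 7.0.1, per the file headers, and mm10 is the build named in the submitters' processing notes. The WT and KO lists hold 32285 genes and the KO_PBS list 31053, so the 30406 shared Ensembl IDs were used, which held 99.6%, 99.6% and 99.3% of UMIs.

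UMIs were summed over all deposited barcodes and scaled to 1000000. Intervals are exact Poisson intervals for sums and Clopper-Pearson intervals for shares and ratios. The call rule (50 UMIs, 2-fold with counts below 3 set to 3, intervals apart) is a rule of size. A share at 0 is limited by 3 counts. No doublet caller was run, and values without the 5% deepest barcodes were computed instead. Shares were thinned to 1000 UMIs, and marker classes needed 3 markers. The 3 libraries are 1 per group, so p-values were not computed.

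All 9 members are named, and of each pathway list the 4 genes with the most UMIs and those called against the list's majority. The nearest and the leading genes are the 5 first in rank, and the leading genes needed 20 UMIs inside the partner barcodes. Other genes named by their call were named after their values were seen. The members and lists were chosen with earlier results of these data known. The rule of 6 partner genes, the Lim2 barcodes, the Prf1 share and the share of barcodes outside the keratocyte-marker class were added after seeing the data. Alternatives were scaling, fold, UMI minimum, barcode filters and partner rules. Tools were edgeR 4.0.16 for TMM factors, matplotlib 3.10.9, scipy 1.17.1, numpy 2.4.6, pandas 2.3.3 and python 3.11.15.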

Additional observations from a re-analysis of the deposited data

How the results depend on the processing

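No paired analysis was possible because each group has 1 library, and for the same reason no replicate could be left out. The log2 ratios of the 9 genes kept their direction in KO against WT and in KO_PBS against WT under every scaling, total and barcode filter run. In KO_PBS against KO, Cd8a and Foxp3 changed sign with TMM scaling and with centring, where neither was called. Members called higher in KO_PBS than in KO fell from 2 to 0 with TMM, centring and a 3-fold rule. Members called lower went from 0 to 3 with TMM, 2 with centring, 1 without immunoglobulin, mitochondrial and AY036118 UMIs in the total, and 2 with a 1.5-fold rule, where 14.1%, 12.9%, 5.07% and 8.59% of all genes were called lower. For the pathway lists, the 11 higher became 5 with TMM and with centring, 20 at 1.5-fold and 6 at 3-fold, and the 6 lower became 18, 18, 14 and 0. Over all genes the higher shares were 29.2%, 29.8%, 50.9% and 30.4%, and 2.71% were lower at 3-fold. Against WT, 0 lower in KO_PBS became 1 with TMM and 3 with centring, beside 13.3% and 23.1% of all genes. The Cd4 share of Cd4 and Cd8a UMIs, 71.0% in KO and 80.2% in KO_PBS, was 68.6% in KO in partner barcodes alone, and with 6 partner genes 68.4% in KO and 85.4% in KO_PBS. With Cd8b1 added to Cd8a over all barcodes it was 66.7%, 50.4% and 69.6% in WT, KO and KO_PBS. The 3 granule genes gave 57.0 UMIs per 100 CD3 UMIs in KO and 122 in KO_PBS, and in partner barcodes 51.6 and 83.4, with 6 partner genes 52.3 and 97.1. Over all barcodes, a gene at the all-gene median would also be higher per CD3 UMI in KO_PBS than in KO. Foxp3 gave 8.18 and 9.48 there, and 13.8 and 5.88 with 6 partner genes, so the order of KO and KO_PBS turned under that rule, on 9 and 2 Foxp3 UMIs. The ratio of Cd3e and Cd3g in partner barcodes, 1.61 in KO and 3.20 in KO_PBS, was 1.38 and 1.90 with 2 partner genes, 1.78 and 5.01 with 4, and 2.06 and 5.36 with 6, and 1.60 and 4.10 with thinning first. Barcodes with a Cd3e or Cd3g UMI were 0.0549%, 1.75% and 1.19% at 500 UMIs and 0.179%, 6.77% and 4.70% at 2000. WT partner barcodes held too few UMIs for a value under the other rules. Counts were smallest in WT, where Gzmb rests on 3 UMIs. The causes of these changes were not tested.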

Other observations

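Markers of several other immune cells were also called higher in the KO library than in WT, where 20.6% of all genes tested were. Of 8 B cell markers 7 were called higher, of 9 dendritic cell markers 9, of 8 macrophage markers 7 and of 6 gamma-delta T cell markers 5. The mast cell and neutrophil markers were mixed, with 4 called higher and 2 lower of 7 tested, where 8.63% of all genes were lower. The lower ones, named after their values were seen, were the mast cell proteases Cpa3, with 1145 UMIs in WT and 257 in KO, and Mcpt4, with 689 and 1. In KO_PBS against WT, 4 of the 7 tested were called higher and 1 lower, beside 57.0% and 4.06% of all genes tested. With counts below 3 set to 3, the lowest log2 ratio of the 8 markers was -1.61 there and -8.30 in KO against WT. In KO_PBS against KO, 2 were called higher and 2 lower, beside 39.9% and 4.70% of all genes tested. The 6 gamma-delta T cell markers had a median log2 ratio of 2.35 in KO against WT. Sox13, which made up most of their summed CPM, had 8.63, 8.39 and 8.86 CPM in WT, KO and KO_PBS, while Trdc, the constant segment of the delta chain, had 0.199, 1.26 and 1.88 CPM. The 6 plasma cell markers summed to 630 CPM in WT, 1970.2 in KO and 465 in KO_PBS, and a single gene made up 519 CPM of the WT sum. Of the 6, 5 were called lower in KO_PBS than in KO, beside 4.70% of all genes tested. Cd4 and Prf1 were called higher in that comparison, beside 39.9%. Against WT, 4 of the 6 were called higher in KO_PBS and 0 lower, beside 57.0% and 4.06% of all genes tested. The order of the WT and KO_PBS sums is thus not that of most of these markers.

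Malat1, a nuclear RNA, had 10150.3 CPM in WT, 5798 in KO and 11281 in KO_PBS, and mitochondrial genes took 0.817%, 0.800% and 0.993% of UMIs.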
